A study of Mus musculus with 6 samples.

Results

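Endothelial genes were examined in RNA sequencing libraries of cells from mouse breast tumours, sorted with, among others, an antibody against CD31, the surface protein of blood vessel cells that Pecam1 encodes. The 35 genes were taken by symbol from the deposited count table of 52325 Ensembl genes, and cover adhesion proteins, receptors, transcription factors and secreted proteins known from blood and lymphatic vessel cells. All 35 were found in the table, and all 35 were among the 20684 genes that passed the filter on low counts. There were 2 libraries of Elf5+ cells and 4 of Elf5- cells, all from C57BL/6 mice of the C3-T tumour background carrying an Elf5-GFP reporter, in which GFP, a fluorescent protein, reports expression of the ETS-family transcription factor Elf5. Tumours were digested with collagenase and hyaluronidase, enriched for tumour cells with antibodies against CD45 (leukocytes), CD31 and TER119 (red blood cells), read here as removal of the cells that carry them, and then split by GFP. On this reading both groups went through a CD31 step before the split. The labels do not state that cells carrying CD31 were removed. The labels do not define C3-T, give no age or sex, and do not state how many animals the libraries represent. P-values here therefore reflect library-to-library spread alone, which may be technical. Sample titles carry 1 of 2 numbers and a code, T1 or T2, which the labels do not define either. Elf5+ library 1 and Elf5- libraries 1 and 2 share the first number, and Elf5+ library 2 and Elf5- libraries 3 and 4 share the second. Both Elf5+ libraries and Elf5- libraries 2 and 4 carry T2, and Elf5- libraries 1 and 3 carry T1.

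Endothelial cells line blood and lymphatic vessels. They are held together by VE-cadherin (Cdh5), CD31 and claudin 5, and grow in response to vascular endothelial growth factors (VEGF) and angiopoietins, which act on receptor kinases of the Flt/Kdr and Tie families. SoxF-group factors (Sox7, Sox17, Sox18) act in blood vessels and Prox1 in lymphatic vessels. Many of these genes are not exclusive to vessels: Pecam1 and Icam2 are also found on leukocytes, Stab1 and Lyve1 on macrophages, Vwf and Mmrn1 in platelets and megakaryocytes, Cd34 on adventitial fibroblasts and blood progenitors, Eng on mesenchymal stromal cells, and Podxl on some epithelial cells.

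Library totals were 9106660 counts in Elf5- library 4 and between 32602477 and 53694884 in the other 5 libraries. Levels are given as CPM, each count as a share of its library's total after scaling by edgeR's TMM factors. A gene with 3 counts lies at 0.309 CPM in Elf5- library 4 and at 0.0581 to 0.0946 CPM elsewhere, so the lowest members are poorly resolved in Elf5- library 4. Elf5- libraries 1 and 2 stood apart in Acta1, a skeletal muscle actin chosen after its values were seen, which was at 1.46 and 0.368 CPM in the Elf5+ libraries, against 107, 18.9, 0.448 and 1.23 CPM in the Elf5- libraries. Without Elf5- libraries 1 and 2 no endothelial gene passed, beside 0.372% of all genes called lower and 0% called higher (edgeR). At an unadjusted p under 0.05 (edgeR) 7 members were lower, beside 1657 of all 20159 genes tested there. The members' median log2 fold change was -0.50, beside 0.09 for all genes. Of 18 epithelial genes 10 passed as higher in the Elf5+ libraries and none as lower at an adjusted p below 0.05 (edgeR), beside 0.585% of all genes called higher. Leaving out Elf5- library 1, 2, 3 or 4 gave 6, 5, 7 and 9, beside 0.123%, 0.234%, 0.211% and 0.654% of all genes called higher. Leaving out an Elf5+ library leaves 1 in that group, and no count is given. The T2 libraries alone gave 0, as did leaving out Elf5- libraries 1 and 2 together, and in both fits no gene at all was called higher. Epcam, an epithelial adhesion molecule, was at 1372 and 1483 CPM in the Elf5+ libraries, against 382, 442, 703 and 514 CPM in the Elf5- libraries.

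Of the 35 endothelial genes, 4 fell in the Elf5+ libraries, namely Cd34, Eng, Tek and Kdr, and 31 did not pass. That is 11.4% of the members, against 3.79% of all genes tested that were called lower (edgeR, quasi-likelihood, adjusted p below 0.05 by Benjamini-Hochberg over all 20684 genes). None of the members was called higher by edgeR, DESeq2 or limma-voom, beside 0.585%, 2.11% and 0.87% of all genes. In edgeR none had an unadjusted p under 0.05 in that direction, beside 1075 of all 20684 genes tested. The log2 fold change, Elf5+ over Elf5-, was below 0 in 34 of 35 members, with a median of -1.20, beside a median of 0.05 for all genes tested. In 10 members every Elf5+ value lay outside the Elf5- range, in each case lower in the Elf5+ libraries, or 28.6% against 14.8% of all genes tested in that direction, while 10.9% of all genes did not overlap in the other direction and no member did. These are bulk samples, in which fewer endothelial cells, less RNA per endothelial cell and fewer other cells that express some of these genes cannot be told apart. Leaving out Elf5+ library 1 or 2 left 1 library in that group, and the members' median log2 fold change was then -2.10 or -0.60. The count of 4 was 0 without Elf5- library 1 or in the T2 libraries alone, beside 1.23% and 0% of all genes called lower. At an unadjusted p under 0.05 (edgeR) 7 members were lower in each, beside 2026 of 20265 and 1463 of 19395 genes. The count of 4 was 1 without Elf5- library 3 and 2 without Elf5- library 2, beside 1.66% and 2.72% of all genes. It was 8 with DESeq2, beside 8.52% of all genes called lower, and 27 when libraries were scaled to epithelial genes, which moves the median of all genes to -1.30 and calls 42.7% of them lower.

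**Figure D1:**
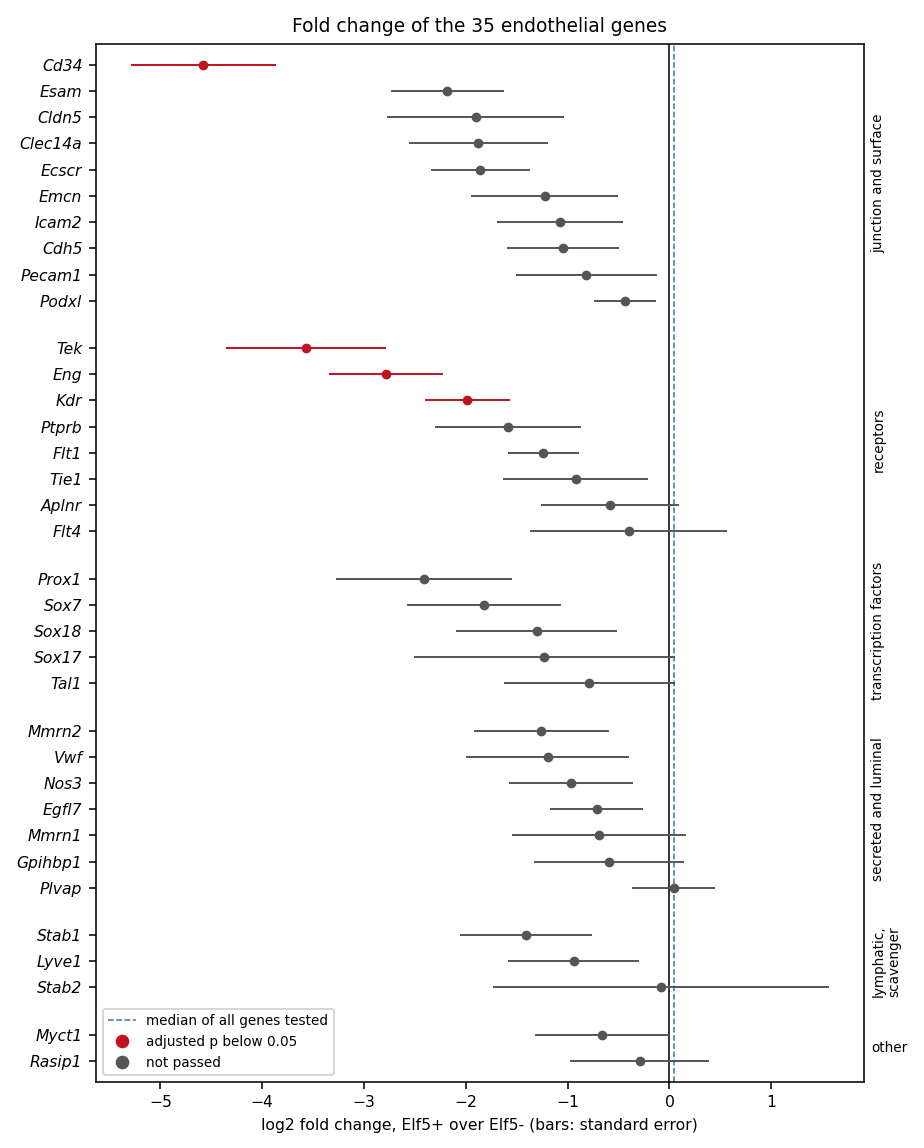
Log2 fold change of each endothelial gene, Elf5+ over Elf5- (x axis; bars are standard errors from edgeR, 2 and 4 libraries), grouped by role; red points passed at an adjusted p below 0.05 and the dashed line is the median of all 20684 genes tested. Plvap alone has a point above 0, at 0.04, and Cd34 lies farthest down, at -4.58.

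The largest difference among the members was that of Cd34 (ENSMUSG00000016494.9, chromosome 1, 194938819 to 194961279, plus strand, GRCm38), which encodes a sialomucin of the cell surface. Cd34 was at 11.2 and 4.61 CPM in the Elf5+ libraries, against 244, 98.7, 306 and 104 CPM in the Elf5- libraries. Both Elf5+ libraries lay far below the lowest Elf5- library, and the highest value was in Elf5- library 3. The log2 fold change was -4.58 (SE 0.71) with an adjusted p of 0.0161 (edgeR), and means were 7.89 ± 4.65 CPM in the Elf5+ libraries (SD, n = 2) and 188 ± 103 CPM in the Elf5- libraries (SD, n = 4).

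Eng (ENSMUSG00000026814.16, chromosome 2, 32646595 to 32682669, plus strand, GRCm38) encodes endoglin, a co-receptor for ligands of the TGF-beta and BMP family. It was at 10.2 and 2.69 CPM in the Elf5+ libraries, against 57.0, 41.2, 46.0 and 32.0 CPM in the Elf5- libraries. The 4 Elf5- libraries were close together, and Elf5+ library 1 held more than Elf5+ library 2 but less than any Elf5- library. Its log2 fold change was -2.78 (SE 0.56), with an adjusted p of 0.0353 (edgeR).

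Tek (ENSMUSG00000006386.15, chromosome 4, 94739289 to 94874976, plus strand, GRCm38), the angiopoietin receptor TIE2, was at 1.87 and 0.639 CPM in the Elf5+ libraries, against 21.3, 6.53, 23.4 and 8.12 CPM in the Elf5- libraries. As with Cd34, Elf5- libraries 1 and 3, the T1 libraries, were the highest. The log2 fold change was -3.57 (SE 0.79) and the adjusted p 0.0474 (edgeR), which became 0.0519 with DESeq2's median-of-ratios (RLE) factors in place of TMM.

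Kdr (ENSMUSG00000062960.10, chromosome 5, 75932827 to 75978458, minus strand, GRCm38), the main signalling receptor for VEGF-A, was at 2.16 and 1.90 CPM in the Elf5+ libraries, against 10.00, 9.55, 6.61 and 5.96 CPM in the Elf5- libraries. Here the 2 Elf5+ libraries lay close to each other, and the groups did not overlap. The log2 fold change of Kdr was -1.99 (SE 0.42), with an adjusted p of 0.0404 (edgeR) on 96 and 98 counts in the Elf5+ libraries. Over the 18 alternatives tried, Cd34 passed in 14, Eng in 12, Tek in 11 and Kdr in 10, and each was negative in all of them.

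Most fibroblast and pericyte markers were also called lower in the Elf5+ libraries. Of 14 fibroblast markers 13 passed as lower (92.9%, beside 3.79% of all genes, edgeR) and all 14 had log2 fold changes below 0, with summed levels of 1459 and 1145 CPM in the Elf5+ libraries, against 26100, 19300, 53920 and 19690 CPM in the Elf5- libraries. Of 9 pericyte and smooth muscle markers 6 passed as lower (66.7%) and all 9 had log2 fold changes below 0, with sums of 122.9 and 119.1 CPM in the Elf5+ libraries, against 648.2 to 1536 CPM in the Elf5- libraries. Without Elf5- library 1, 7 of the fibroblast and 3 of the pericyte markers passed, beside 1.23% of all genes called lower. Without Elf5- library 3, 3 of the pericyte markers passed, beside 1.66% of all genes. Without Elf5+ library 2 only 1 Elf5+ library is left, and no count is given. In the T2 libraries alone none of either list passed, and neither did any other of the 19395 genes tested. No defining marker of these cells was at 0. Rgs5, of pericytes, was at 7.92 and 4.36 CPM in the Elf5+ libraries, against 395, 278, 268 and 126 CPM in the Elf5- libraries. Pdgfra, a receptor of fibroblasts, did not pass, at 40.7 and 177 CPM in the Elf5+ libraries, against 249, 176, 366 and 238 CPM in the Elf5- libraries. The part of these cells in the result was not tested.

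The promoters of the 4 genes that fell are shown, with that of Tie1, a receptor of the same family as Tek that did not pass, since the ETS factors that bind GGAA are known regulators of vessel genes. Each window runs from 250 bases before to 50 after the RefSeq gene start (GRCm38.p6), 5′ to 3′ on the strand of the gene, and capitals mark GGAA or its reverse complement TTCC.
Cd34 (chr1:194938571-194938870, plus strand): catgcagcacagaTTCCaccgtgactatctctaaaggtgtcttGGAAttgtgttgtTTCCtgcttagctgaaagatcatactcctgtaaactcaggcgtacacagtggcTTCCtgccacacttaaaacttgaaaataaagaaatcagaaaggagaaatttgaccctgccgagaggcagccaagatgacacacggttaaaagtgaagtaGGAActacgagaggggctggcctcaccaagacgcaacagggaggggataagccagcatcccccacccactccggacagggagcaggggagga
Eng (chr2:32646345-32646644, plus strand): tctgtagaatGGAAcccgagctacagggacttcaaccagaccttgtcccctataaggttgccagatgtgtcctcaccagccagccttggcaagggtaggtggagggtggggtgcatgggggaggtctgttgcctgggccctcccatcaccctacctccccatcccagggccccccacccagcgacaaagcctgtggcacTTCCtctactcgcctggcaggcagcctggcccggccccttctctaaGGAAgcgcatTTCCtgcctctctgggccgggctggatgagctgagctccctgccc
Tek (chr4:94739039-94739338, plus strand): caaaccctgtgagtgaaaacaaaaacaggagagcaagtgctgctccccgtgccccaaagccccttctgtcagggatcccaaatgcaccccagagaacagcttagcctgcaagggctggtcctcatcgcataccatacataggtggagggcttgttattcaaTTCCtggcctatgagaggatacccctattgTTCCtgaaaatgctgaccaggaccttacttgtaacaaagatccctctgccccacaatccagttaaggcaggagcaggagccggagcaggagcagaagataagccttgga
Kdr (chr5:75978406-75978705, minus strand): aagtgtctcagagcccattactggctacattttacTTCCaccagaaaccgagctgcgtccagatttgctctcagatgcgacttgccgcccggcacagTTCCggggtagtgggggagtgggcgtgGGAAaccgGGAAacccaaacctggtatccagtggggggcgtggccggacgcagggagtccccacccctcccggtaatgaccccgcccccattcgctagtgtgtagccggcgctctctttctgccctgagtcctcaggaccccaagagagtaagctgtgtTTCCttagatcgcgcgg
Tie1 (chr4:118489800-118490099, minus strand): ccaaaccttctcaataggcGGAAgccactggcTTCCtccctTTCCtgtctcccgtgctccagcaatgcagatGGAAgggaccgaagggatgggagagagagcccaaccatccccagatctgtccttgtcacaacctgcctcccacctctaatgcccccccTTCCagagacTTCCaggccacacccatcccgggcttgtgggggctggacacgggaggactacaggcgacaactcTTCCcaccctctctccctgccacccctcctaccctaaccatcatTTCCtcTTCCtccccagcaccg
The 300-base windows held 5 matches in Cd34, 4 in Eng, 2 in Tek, 5 in Kdr and 9 in Tie1. RefSeq windows were matched for 18 of the 35 members (22 windows). GGAA on either strand was present in 95.5% of the members' windows and in 96.0% of all 32841 windows, with a median of 5 matches in members and 3 in all. The Sox core ACAAT was present, on either strand, in 22.7% of the members' windows and 31.0% of all, and the GATA core GATAA in 31.8% and 25.4%. These matches are a description of letters and do not show binding.

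**Figure D2:**
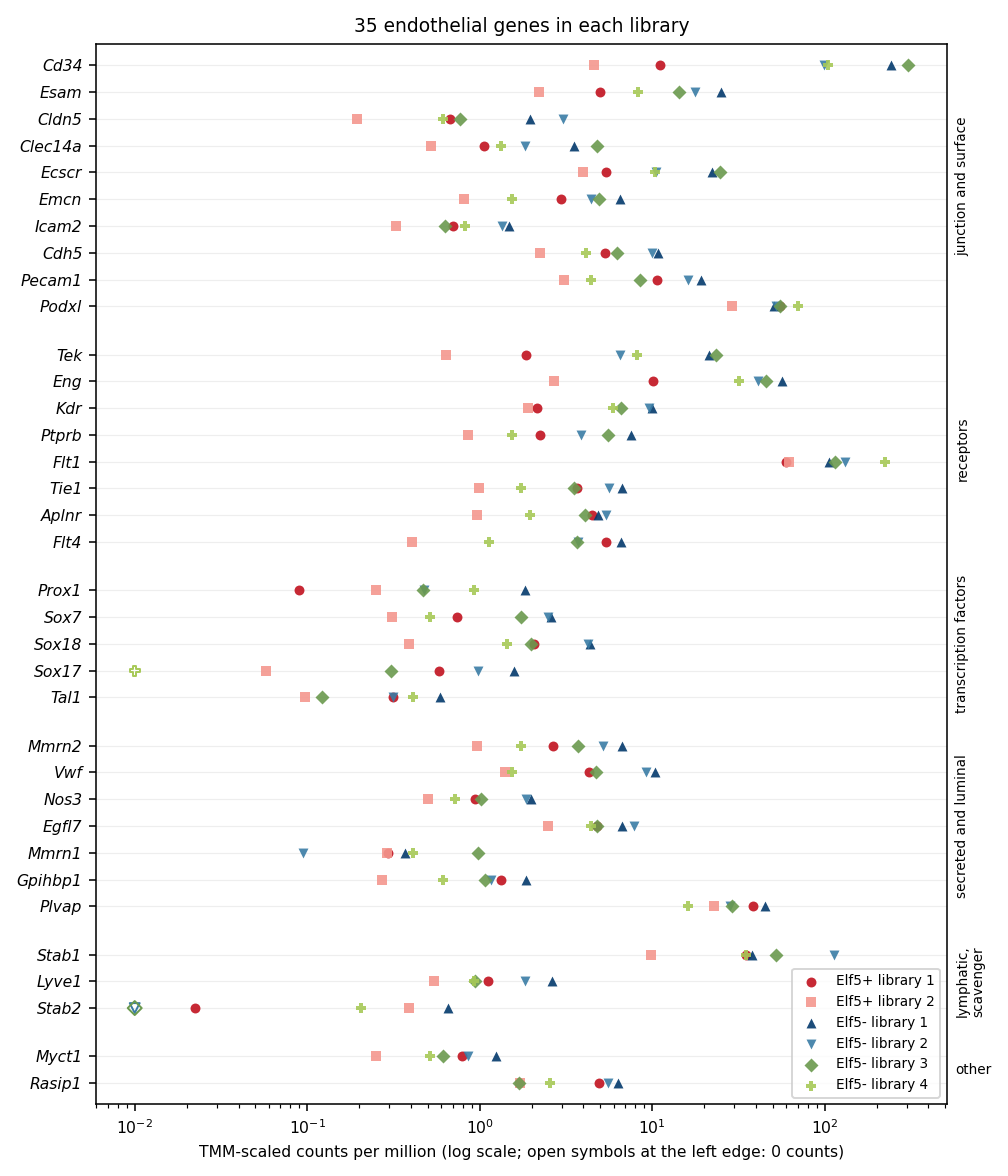
TMM-scaled CPM (log x axis) of the 35 endothelial genes in each of the 6 libraries, with a symbol per library and genes grouped by role; open symbols at the left edge are libraries with 0 counts (Sox17 in Elf5- library 4, and Stab2 in Elf5- libraries 2 and 3). Elf5+ library 2 is the lowest library in 28 genes, and Elf5+ library 1 lies within the range of the Elf5- libraries in 25.

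The other 5 receptors did not pass. Flt1, a VEGF receptor that also acts as a decoy, was at 59.7 and 61.9 CPM in the Elf5+ libraries, against 106, 132, 114 and 223 CPM in the Elf5- libraries. Both Elf5+ libraries lay below all 4 Elf5- libraries and nearly coincided, with a log2 fold change of -1.24 (SE 0.35) and an adjusted p of 0.0987 (edgeR); Flt1 passed in 4 of 18 alternatives, DESeq2 among them. Flt4, the receptor for VEGF-C and VEGF-D that is typical of lymphatic vessels, was at 5.40 and 0.406 CPM in the Elf5+ libraries, against 6.61, 3.72, 3.68 and 1.13 CPM in the Elf5- libraries. The 2 Elf5+ libraries stood at opposite ends for this gene, library 1 being second of the 6 and library 2 the lowest. Its log2 fold change was -0.40 (SE 0.97), and was 0.49 without Elf5+ library 2.

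Tie1, a partner of TIE2, was at 3.69 and 0.987 CPM in the Elf5+ libraries, against 6.70, 5.61, 3.52 and 1.75 CPM in the Elf5- libraries. Elf5+ library 1 fell between Elf5- libraries 3 and 2, so the groups overlapped. Ptprb, a phosphatase that acts on TIE2 and VE-cadherin, was at 2.25 and 0.852 CPM in the Elf5+ libraries, against 7.51, 3.85, 5.57 and 1.54 CPM in the Elf5- libraries, and Aplnr, the apelin receptor, at 4.50 and 0.968 CPM in the Elf5+ libraries, against 4.85, 5.39, 4.07 and 1.95 CPM in the Elf5- libraries. Log2 fold changes were -0.92, -1.59 and -0.58 for Tie1, Ptprb and Aplnr, with standard errors of 0.71, 0.72 and 0.68. In all 3 genes Elf5+ library 2 was the lowest of the 6 libraries.

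Among adhesion and surface genes, Pecam1 (ENSMUSG00000020717.19, chromosome 11, 106654217 to 106750628, minus strand, GRCm38), which encodes the CD31 antigen used in the sort, was detected in every library. Pecam1 was at 10.6 and 3.08 CPM in the Elf5+ libraries, against 19.1, 16.0, 8.48 and 4.42 CPM in the Elf5- libraries. Elf5+ library 1 held more Pecam1 than Elf5- libraries 3 and 4, and Elf5+ library 2 held less than any other library. The log2 fold change was -0.82 (SE 0.69), with an adjusted p of 0.645 (edgeR), so no difference between the sorts was detected at this spread.

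Cdh5 (ENSMUSG00000031871.9, chromosome 8, 104101625 to 104144511, plus strand, GRCm38), VE-cadherin, was at 5.31 and 2.25 CPM in the Elf5+ libraries, against 10.8, 9.96, 6.25 and 4.11 CPM in the Elf5- libraries. It followed the library order of Pecam1 closely, except that Elf5+ library 1 lay below Elf5- library 3. Its log2 fold change was -1.05 (SE 0.55), with an adjusted p of 0.409 (edgeR). Cldn5, the claudin of endothelial tight junctions, was at 0.675 and 0.194 CPM in the Elf5+ libraries, against 1.96, 3.06, 0.773 and 0.617 CPM in the Elf5- libraries, but on 6 to 97 counts per library. Its groups overlapped through Elf5+ library 1. Icam2, an adhesion molecule that binds leukocyte integrins, was at 0.697 and 0.329 CPM in the Elf5+ libraries, against 1.48, 1.35, 0.631 and 0.823 CPM in the Elf5- libraries. Emcn, a sialomucin of veins and capillaries, was at 2.95 and 0.813 CPM in the Elf5+ libraries, against 6.55, 4.44, 4.90 and 1.54 CPM in the Elf5- libraries. The groups overlapped in both, with log2 fold changes of -1.07 for Icam2, -1.23 for Emcn and -1.90 for Cldn5.

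Esam, Clec14a and Ecscr differed from these in that their groups did not overlap. Esam, an immunoglobulin-family adhesion molecule of tight junctions, was at 4.99 and 2.21 CPM in the Elf5+ libraries, against 24.9, 17.6, 14.3 and 8.23 CPM in the Elf5- libraries. Its log2 fold change of -2.18 (SE 0.56) did not pass (adjusted p = 0.0753, edgeR), but passed in 7 of 18 alternatives, among them DESeq2 (0.000944), limma-voom (0.0490) and no low-count filter (0.0156). Ecscr, a regulator of endothelial motility, was at 5.42 and 3.97 CPM in the Elf5+ libraries, against 22.3, 10.5, 24.6 and 10.4 CPM in the Elf5- libraries. Clec14a, a surface lectin-like protein that binds multimerin 2, was at 1.06 and 0.523 CPM in the Elf5+ libraries, against 3.51, 1.83, 4.80 and 1.34 CPM in the Elf5- libraries. Both were highest in Elf5- library 3, whereas Esam was highest in Elf5- library 1. Log2 fold changes were -1.86 for Ecscr and -1.88 for Clec14a, and neither passed. Ecscr passed with DESeq2 (adjusted p 0.00291), with no low-count filter (0.0263) and with epithelial-gene scaling (0.00328), and Clec14a with DESeq2 (0.0417) and epithelial-gene scaling (0.0112). Podxl, podocalyxin, was at 55.5 and 29.0 CPM in the Elf5+ libraries, against 50.9, 52.3, 55.0 and 70.3 CPM in the Elf5- libraries, with Elf5+ library 1 among the Elf5- libraries and a log2 fold change of -0.43 (SE 0.30).

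None of the 5 transcription factors passed in edgeR, and 2 of them, Sox7 and Prox1, had unadjusted p-values under 0.05. At that threshold 10 of the 35 members were lower, beside 2423 of all 20684 genes tested (edgeR). Sox18 was at 2.07 and 0.387 CPM in the Elf5+ libraries, against 4.34, 4.25, 1.99 and 1.44 CPM in the Elf5- libraries. Sox7 was at 0.742 and 0.310 CPM in the Elf5+ libraries, against 2.58, 2.49, 1.73 and 0.514 CPM in the Elf5- libraries. In both, Elf5+ library 2 was the lowest and Elf5- libraries 1 and 2 the highest. Sox17, a factor of arteries, was at 0.585 and 0.0581 CPM in the Elf5+ libraries, against 1.57, 0.977, 0.305 and 0 CPM in the Elf5- libraries, on 0 to 72 counts. The 0 in Elf5- library 4 allows up to 0.309 CPM, so its place in the order is not resolved. Log2 fold changes were -1.31 for Sox18, -1.82 for Sox7 and -1.23 for Sox17.

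Prox1, the factor that sets lymphatic identity, was at 0.0900 and 0.252 CPM in the Elf5+ libraries, against 1.83, 0.473, 0.468 and 0.926 CPM in the Elf5- libraries. Its groups did not overlap, and unlike the SoxF genes it was lower in Elf5+ library 1 than in Elf5+ library 2, but these values are 4 and 13 counts. The log2 fold change was -2.41 (SE 0.86), with an adjusted p of 0.196 (edgeR). Tal1, shared by blood and vessel precursors, was at 0.315 and 0.0968 CPM in the Elf5+ libraries, against 0.589, 0.315, 0.122 and 0.411 CPM in the Elf5- libraries, on 4 to 27 counts each.

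None of the 7 secreted and luminal genes passed, and their median log2 fold change was -0.72. Plvap, of the diaphragms of fenestrated capillaries, was at 38.4 and 22.8 CPM in the Elf5+ libraries, against 45.2, 28.2, 29.2 and 16.1 CPM in the Elf5- libraries. It was the sole member with a log2 fold change above 0, at 0.04 (SE 0.41), and this was -1.41 when libraries were scaled to epithelial genes and -0.04 with limma-voom. Vwf, von Willebrand factor, was at 4.30 and 1.39 CPM in the Elf5+ libraries, against 10.4, 9.23, 4.72 and 1.54 CPM in the Elf5- libraries. The groups overlapped through Elf5+ library 1, and Elf5- library 4 was nearly as low as Elf5+ library 2.

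Mmrn2, a vessel matrix protein that binds Clec14a, was at 2.68 and 0.968 CPM in the Elf5+ libraries, against 6.66, 5.17, 3.72 and 1.75 CPM in the Elf5- libraries. Egfl7, a secreted protein whose gene hosts miR-126, was at 4.79 and 2.48 CPM in the Elf5+ libraries, against 6.68, 7.88, 4.82 and 4.42 CPM in the Elf5- libraries. Nos3, the endothelial nitric oxide synthase, was at 0.945 and 0.503 CPM in the Elf5+ libraries, against 1.99, 1.86, 1.02 and 0.720 CPM in the Elf5- libraries. These 3 genes had the same lowest library, Elf5+ library 2, and log2 fold changes of -1.26, -0.72 and -0.97; exons of Egfl7 and Nos3 share bases with those of other genes, over 7.37% with Gm20532 for Egfl7 and 25.2% with Gm15587 for Nos3. Gpihbp1, which carries lipoprotein lipase across capillaries, was at 1.33 and 0.271 CPM in the Elf5+ libraries, against 1.85, 1.17, 1.08 and 0.617 CPM in the Elf5- libraries. Mmrn1, multimerin 1, was at 0.292 and 0.290 CPM in the Elf5+ libraries, against 0.371, 0.0946, 0.976 and 0.411 CPM in the Elf5- libraries. Their log2 fold changes were -0.59 and -0.69, and neither passed. Mmrn1 did not follow the common order, being lowest in Elf5- library 2, on 3 counts.

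Of the scavenger and hyaluronan receptors, Stab1, stabilin 1, was at 34.9 and 9.91 CPM in the Elf5+ libraries, against 37.9, 113, 52.0 and 35.2 CPM in the Elf5- libraries. Its groups came close but did not overlap, and Elf5- library 2 was the highest, with a log2 fold change of -1.41 (SE 0.65) that did not pass. Lyve1, the hyaluronan receptor of lymphatic vessels, was at 1.12 and 0.542 CPM in the Elf5+ libraries, against 2.64, 1.83, 0.936 and 0.926 CPM in the Elf5- libraries. Elf5+ library 1 lay above Elf5- libraries 3 and 4. Stab2, of sinusoids, was near the limit of detection, with 1 and 20 counts in the Elf5+ libraries, against 30, 0, 0 and 2 counts in the Elf5- libraries; counts of 0 allow up to 0.0946 and 0.061 CPM in Elf5- libraries 2 and 3. Rasip1, a Rap1 effector needed for vessel lumen formation, was at 4.93 and 1.70 CPM in the Elf5+ libraries, against 6.33, 5.58, 1.69 and 2.57 CPM in the Elf5- libraries, and Myct1 at 0.787 and 0.252 CPM in the Elf5+ libraries, against 1.24, 0.851, 0.610 and 0.514 CPM in the Elf5- libraries. Neither passed, with log2 fold changes of -0.29 and -0.66, and 20.4% of Rasip1's exon bases are shared with Izumo1.

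The 2 Elf5+ libraries did not agree on the level of most endothelial genes. Elf5+ library 1 was above Elf5+ library 2 in 32 of 35 members (91.4%, beside 50.7% of all genes tested). With 1 prior count added, library 1 was at least 2-fold above library 2 in 24 members (68.6%, beside 16.1% of all genes tested). On the same scale, library 2 was at least 2-fold above library 1 in 2 members, Prox1 and Stab2 (5.71%, beside 15.3% of all genes). The median log2 ratio of library 1 to library 2, also with the prior count, was 1.37 over the members and 0.02 over all genes tested. There is 1 library on each side of these ratios, so the spread between libraries cannot be estimated, and the intervals below cover counting error only.

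Flt4 had a ratio of library 1 to library 2 of 13.3 (8.49 to 21.9), where the bounds are an exact 95% binomial interval of the counts. Ratios were 5.35 (3.27 to 9.16) for Sox18, 4.65 (3.40 to 6.47) for Aplnr, 3.77 (3.11 to 4.59) for Eng and 3.45 (2.88 to 4.16) for Pecam1. At the other end, Flt1, at 0.964 (0.915 to 1.01), Mmrn1, at 1.01 (0.441 to 2.27), and Kdr, at 1.14 (0.850 to 1.52), had intervals that include 1. In all, the interval lay above 1 in 30 members, below 1 in Stab2 and across 1 in 4. No share of all genes was computed for these counts, and the intervals leave out every difference between the libraries other than counting error. The 3 VEGF receptors thus differed among themselves, with Flt4 far from equal between the 2 Elf5+ libraries and Flt1 and Kdr close to it.

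The place of the 2 Elf5+ libraries relative to the Elf5- libraries also differed. Elf5+ library 2 was below all 4 Elf5- libraries in 30 of 35 members (85.7%, beside 26.8% of all genes tested). Elf5+ library 1 was below all 4 in 10 members (28.6%, beside 28.5% of all genes tested), a share near that of all genes. In 20 members Elf5+ library 1 was above Elf5- library 4 (57.1%, beside 47.8% of all genes), and in 15 above Elf5- library 3 (42.9%, beside 52.2%), shares near those of all genes. The median log2 fold change of the members was -2.10 without Elf5+ library 1 and -0.60 without Elf5+ library 2.

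**Figure D3:**
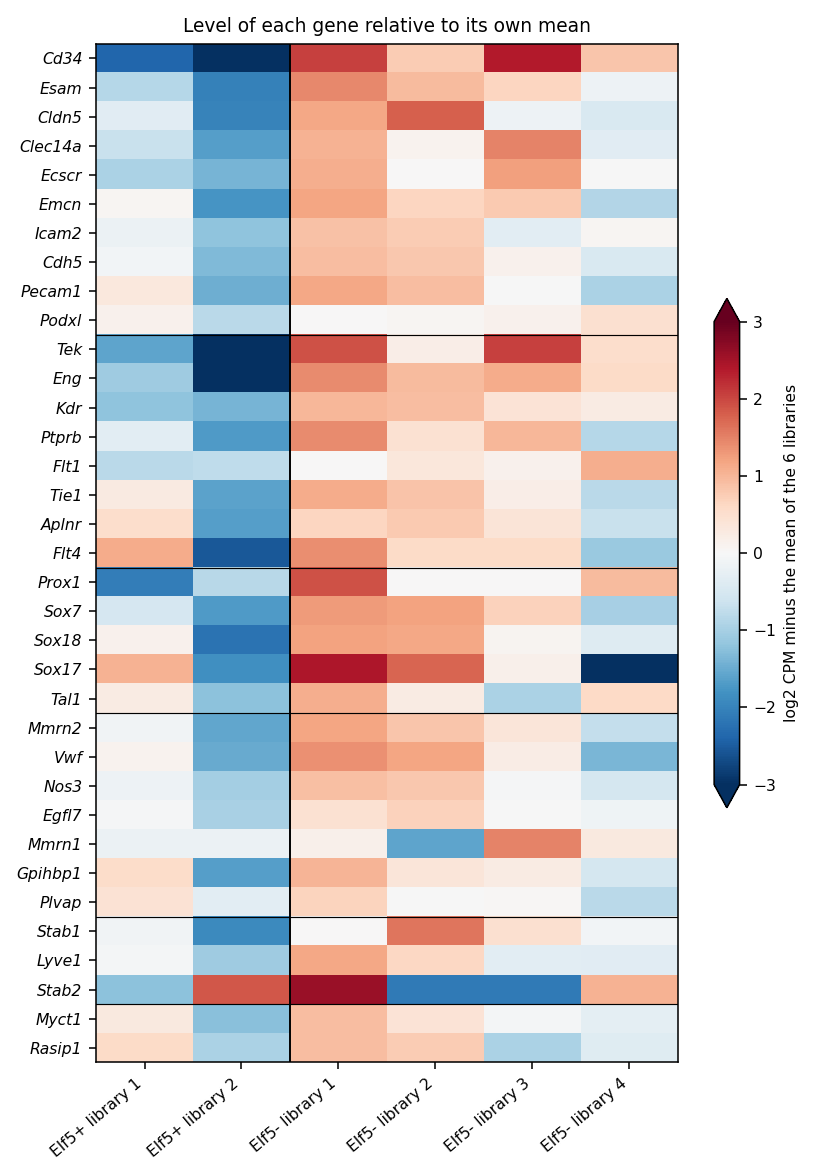
Level of each endothelial gene in each library as log2 CPM (1 prior count) minus the gene's mean over the 6 libraries (colour, limited to -3 to 3), with the Elf5+ libraries left of the vertical line. Elf5+ library 2 is below the mean in 34 of 35 genes and Elf5- library 1 in 0, while Elf5+ library 1 is below it in 21, with Cd34, Prox1 and Tek farthest down.

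Levels of many members also went with the title number, whose meaning is not given, in both sorts. Elf5- library 1 was the highest of the 6 libraries in 24 members (68.6%, beside 15.8% of all genes tested), Elf5- library 3 in 5, Elf5- library 2 in 4 and Elf5- library 4 in 2. In 20 of 35 members, or 57.1% beside 14.2% of all genes tested, the libraries of the first number were above those of the second in both sorts, that is, Elf5+ library 1 above Elf5+ library 2 and both Elf5- libraries 1 and 2 above both Elf5- libraries 3 and 4. Pecam1, Cdh5, Tie1, Vwf and Sox18 were among the 20. For Vwf the 3 libraries of the first number were at 4.30, 10.4 and 9.23 CPM and those of the second at 1.39, 4.72 and 1.54 CPM. Cd34 and Tek did not show it, with Elf5- library 3 above Elf5- libraries 1 and 2.

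Within the T2 libraries of the first number, Elf5+ library 1 was below Elf5- library 2 in 29 of 35 members. It was above in 6 (17.1%, beside 48.8% of all genes tested). The median log2 ratio was -0.78, beside -0.02 over all genes tested. Within those of the second number, Elf5+ library 2 was below Elf5- library 4 in 32 members and above in 3 (8.57%, beside 51.4% of all genes). The median was -0.99, beside 0.02 over all genes. In both pairs the Elf5+ library was lower in 28 members, a count for which no share of all genes was computed. With 1 prior count added, the ratio was at or under 0.5 in 12 members in the first pair (34.3%, beside 17.1% of all genes). In the second pair it was so in 17 (48.6%, beside 16% of all genes). In 10 members it was so in both, again with no such share. Without the prior count, Cd34 had the smallest ratio in both pairs, at 0.113 and 0.0441. Plvap was higher in the Elf5+ library of each pair, at 1.36 (1.25 to 1.48) and 1.41 (1.20 to 1.68). Pecam1, with ratios of 0.662 (0.583 to 0.752) and 0.696 (0.494 to 0.999), was lower in the Elf5+ library of each pair by similar amounts, although its levels differed between the pairs.

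**Figure D4:**
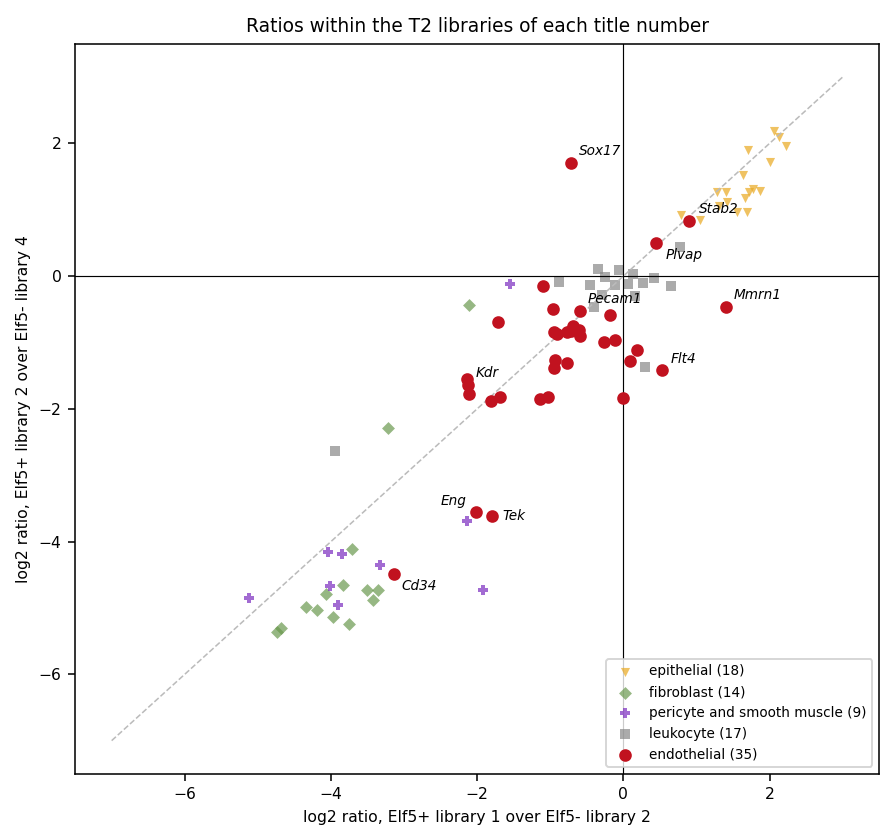
Log2 ratio of Elf5+ to Elf5- within the T2 libraries of the first title number (x axis) and of the second (y axis), 1 library on each side (1 prior count), for the 35 endothelial genes and for lists of epithelial, fibroblast, pericyte and leukocyte genes; the dashed line marks equal ratios. Most endothelial genes lie between the leukocyte genes near 0 and the fibroblast and pericyte genes near -4 on both axes, and Cd34, Eng and Tek lie nearest to the fibroblast and pericyte genes.

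A list of 50 other endothelial genes was examined in the same way. Of 49 that could be tested, 9 fell and none rose in edgeR (18.4%, against the 3.79% of all genes called lower), and 40 did not pass. In 47 the log2 fold change was below 0, with a median of -1.41 over the list. Whether the 9 genes are exclusive to vessels was not tested. The count of 9 was 3 without Elf5- library 1, 4 without Elf5- library 3 and 2 without Elf5- libraries 1 and 2. All genes called lower there were 1.23%, 1.66% and 0.372%. Without Elf5+ library 2 only 1 Elf5+ library is left, and no count is given. The count was 0 in the T2 libraries alone, where no gene at all was called. It was 15 with the title number as a block and 21 with DESeq2, beside 4.89% and 8.52% of all genes. It was 17 without the filter on low counts and 38 when scaled to epithelial genes, beside 3.76% and 42.7%. The 4 of smallest p were Nrp1, a co-receptor for VEGF and semaphorins, Tmem100, a target of BMP signalling, Thbd, thrombomodulin, and Adgrf5, an adhesion G protein-coupled receptor. Their log2 fold changes were -3.46 for Nrp1, -5.03 for Tmem100, -4.56 for Thbd and -3.59 for Adgrf5, with adjusted p-values of 0.01, 0.01, 0.0132 and 0.0207 (edgeR). Nrp1 was at 4.21 and 4.61 CPM in the Elf5+ libraries, against 48.6, 35.8, 62.5 and 47.7 CPM in the Elf5- libraries. The 2 Elf5+ libraries lay close together for Nrp1, and the Elf5- libraries lay far above. Erg, an ETS factor of endothelial cells, was at 4.25 and 9 CPM in the Elf5+ libraries, against 6.61, 4.98, 7.75 and 8.43 CPM in the Elf5- libraries. Erg overlapped between the groups and was higher in Elf5+ library 2 than in library 1, against the order of most members. In 41 of the 49 genes Elf5+ library 1 was above Elf5+ library 2, with a median log2 ratio of 1.11.

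Ligands of these receptors were considered as well. Of 16 ligand genes 13 could be tested, and 4 fell in the Elf5+ libraries (30.8%, beside 3.79% of all genes) and none rose (edgeR). The count of 4 was 0 without Elf5- library 1, beside 1.23% of all genes called lower, and 0 in the T2 libraries alone, where no gene was called. It was 1 without Elf5- library 2 or 3, beside 2.72% and 1.66% of all genes, and 10 when scaled to epithelial genes, beside 42.7%. Without Elf5+ library 2 only 1 Elf5+ library is left, and no count is given. Angpt2, a context-dependent TIE2 ligand, was at 1.49 and 0.948 CPM in the Elf5+ libraries, against 20.1, 11.8, 13.8 and 5.14 CPM in the Elf5- libraries, with a log2 fold change of -3.39 (SE 0.63). For Angpt1 and Angpt4, the other TIE2 ligands, it was -2.42 (SE 0.52) and -4.03 (SE 0.72), and for Vegfd, a ligand of FLT4, it was -5.10 (SE 0.82). Without Elf5+ library 2 the log2 fold changes were -2.04 for Angpt1, -3.10 for Angpt2, -3.55 for Angpt4 and -4.95 for Vegfd. Angpt1 did not pass with RLE factors, at an adjusted p of 0.0507 (edgeR). Vegfa, the main ligand of KDR and FLT1, was at 679.7 and 362 CPM in the Elf5+ libraries, against 395, 901, 349 and 394 CPM in the Elf5- libraries. Its groups overlapped, with a log2 fold change of 0.03 (SE 0.46) that was -1.38 when scaled to epithelial genes.

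Blood cell types were read from their own markers. None of 17 leukocyte markers was called in either direction in edgeR, with a median log2 fold change of -0.44 and summed levels of 306.4 and 136.0 CPM in the Elf5+ libraries, against 633.4, 302.7, 170.7 and 154.1 CPM in the Elf5- libraries. Like the endothelial members, these sums were higher in Elf5+ library 1 than in Elf5+ library 2 and highest in Elf5- library 1. Ptprc, which encodes CD45, was also highest in Elf5- library 1 but was higher in Elf5+ library 2 than in Elf5+ library 1, at 3.24 and 6.02 CPM in the Elf5+ libraries, against 14.7, 5.99, 3.97 and 6.38 CPM in the Elf5- libraries. None of the 7 platelet and 5 red cell genes that could be tested was called, with median log2 fold changes of -0.35 and -0.12. Gp9, a platelet glycoprotein, was at 0 counts in 5 libraries and at 5 counts in Elf5+ library 2. Pf4, platelet factor 4, was at 1.44 and 0.174 CPM in the Elf5+ libraries, against 2.51, 1.14, 0.488 and 0 CPM in the Elf5- libraries, and Itga2b, the platelet integrin, at 12.9 and 15.2 CPM in the Elf5+ libraries, against 19.6, 15.7, 15.0 and 21.5 CPM in the Elf5- libraries. The part of leukocytes and platelets in the levels of Pecam1, Icam2, Vwf and Mmrn1 was not tested.

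**Figure D5:**
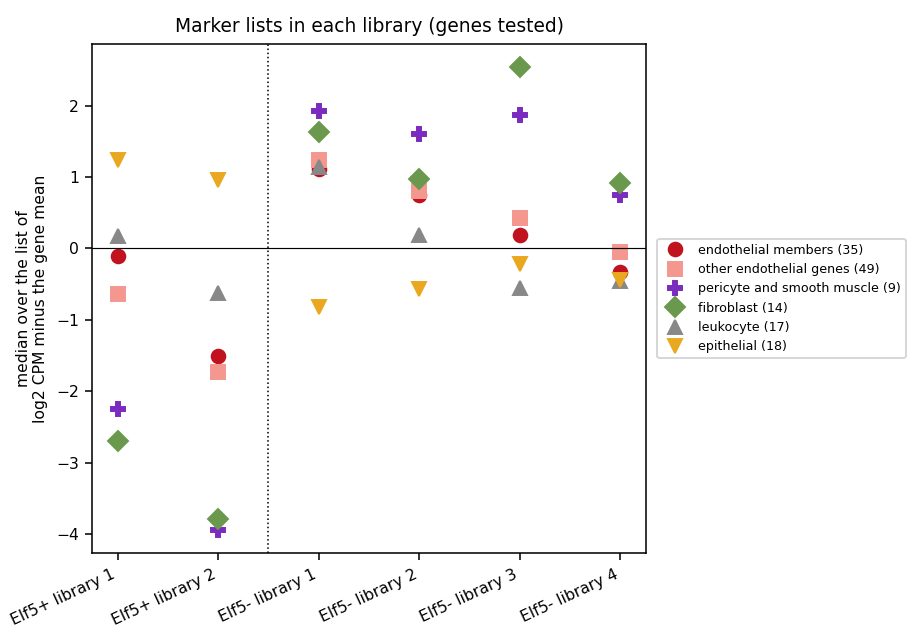
Median over each gene list of log2 CPM (1 prior count) minus the gene's mean over the 6 libraries, for each library, with the Elf5+ libraries left of the dotted line and the number of genes tested in brackets. The endothelial members are at -0.10 and -1.51 in Elf5+ libraries 1 and 2, and at 1.12, 0.75, 0.19 and -0.33 in Elf5- libraries 1 to 4; fibroblast and pericyte markers are below -2 in both Elf5+ libraries.

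The lists thus stood at different distances between the sorts. The median log2 fold change was -4.72 for the fibroblast list, -4.25 for the pericyte and smooth muscle list, -1.20 for the endothelial members, -0.44 for the leukocyte list and 1.44 for the epithelial list. Summed over the 35 members, levels were 286.3 and 159.9 CPM in the Elf5+ libraries, against 738.5, 606.5, 738.1 and 549.7 CPM in the Elf5- libraries. The sums did not overlap between the groups, and Cd34 was the largest term in the sums of Elf5- libraries 1 and 3. In the 25 members whose groups overlapped, among them Pecam1, Cdh5 and Tie1, Elf5+ library 1 lay within the range of the Elf5- libraries.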

How the data were processed

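RNA sequencing of 2 Elf5+ and 4 Elf5- libraries was analysed from the authors' deposited table of estimated counts per Ensembl gene, for which the submitters' processing notes name Salmon and GRCm38.p5. The version of Salmon, the annotation release and the strandedness were not given in the sources used here. The values were whole numbers, so rounding changed none. IDs were matched to symbols without their version (52220 of 52325 matched, 77 sharing a symbol). Totals per library run between 9106660 and 53694884 counts; intervals and floors cover counting error only.

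Genes were kept by filterByExpr, scaled by TMM and tested with edgeR 4.0.16 quasi-likelihood (R 4.3.3), with Benjamini-Hochberg adjustment over all 20684 genes tested and a threshold of 0.05; the common biological coefficient of variation was 0.446. The fit was tested on simulated data. The alternatives were RLE, upper-quartile and epithelial-gene scaling, 2 other filters, DESeq2 1.42.0, limma-voom (limma 3.58.1), the title number as a block, subsets of libraries and, chosen after seeing the data, thinning. Ratios of single libraries have exact binomial intervals and no test. Promoter windows come from RefSeq (GRCm38.p6), and figures were drawn with matplotlib 3.10.9.

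Members and lists were chosen with earlier results of these data known. The text names all 35 members, up to 4 genes of smallest p that passed in each direction from each other list, and 10 defining markers whatever their values; Acta1 is outside this rule.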

Additional observations from a re-analysis of the deposited data

Results flagged for a closer look

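Among 63 named genes, the 4 Elf5- libraries were searched for a single value far from the others by Dixon's test, which chance meets in about 1 group in 20, and 3 were found, none of them an endothelial member. Vegfa was at 901 CPM in Elf5- library 2, with the other 3 Elf5- libraries between 349 and 395 CPM. Vegfd was at 54.8 CPM in Elf5- library 3, with the others between 11.8 and 17.1 CPM. Tjp3, an epithelial tight junction gene, was at 6.89 CPM in Elf5- library 4, with the others between 8.92 and 9.28 CPM.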

How the results depend on the processing

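The 4 members called lower became 27 with epithelial-gene scaling, 7 with no low-count filter and 8 with DESeq2. They became 0 in the T2 libraries alone, 7 in those with the block, and 0 without Elf5- libraries 1 and 2. At an unadjusted p under 0.05 (edgeR) the T2 libraries alone gave 7 members lower, beside 1463 of 19395 genes. Leaving out Elf5- libraries 1 and 2 gave 7, beside 1657 of 20159 genes. Leaving out 1 Elf5- library gave 0 to 5 members called lower. No member was called higher under any of the 18 alternatives. The members' median log2 fold change of -1.20 was -2.61 with epithelial-gene scaling and -2.10 to -0.60 leaving out 1 library. Of all genes, the 783 called lower became 8841, 1331, 1763, 0, 1368 and 75 in the same order of alternatives, and 197 to 811 leaving out 1 library; the 121 called higher became 13, 273, 436, 0, 549 and 0, and 25 to 133. The title number as a replicate block gave 5 members lower, adding Esam, with a median of -1.20, and 1011 lower and 252 higher genes; a number is only a shared label here, and deviations of Elf5+ library 1 correlated at 0.157 and 0.467 with those of Elf5- libraries 1 and 2 and at 0.024 and -0.504 with those of Elf5- libraries 3 and 4, across genes. The median log2 ratio of Elf5+ library 1 to library 2, 1.37, was 0.86 with epithelial-gene scaling. That of the first T2 pair, -0.78, was -0.73 with RLE, -0.74 with upper-quartile and -2.24 with epithelial-gene scaling, and that of the second, -0.99, was -2.23 with the last of these.

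Log2 fold changes that changed sign were, in the T2 libraries alone, Flt4 0.23, Mmrn1 0.43, Pf4 0.35 and Vegfa -0.31; with the block added, Mmrn1 0.55, Pf4 0.69 and Vegfa -0.26; without Elf5- libraries 1 and 2, Flt4 0.21, Pecam1 0.0695, Pf4 1.38, Rasip1 0.68, Sox17 0.65 and Stab2 1.96; with epithelial-gene scaling, Plvap -1.41 and Vegfa -1.38; with no filter, Plvap -0.0124 and Vegfa -0.007; with limma-voom, Plvap -0.0353 and Stab2 0.86; with the block over all libraries, Stab2 0.10; and after thinning, Erg 0.025 and Rasip1 0.011. Leaving out 1 library gave -2.08 to 0.13 for Aplnr, -0.71 to 0.38 for Erg, -3.23 to 0.49 for Flt4, -2.14 to 0.14 for Gpihbp1, -1.04 to 0.0536 for Mmrn1, -2.61 to 0.46 for Pf4, -0.39 to 0.37 for Plvap, -1.25 to 0.28 for Rasip1, -3.09 to 0.81 for Stab2 and -0.49 to 0.46 for Vegfa. The cause was not tested. In Elf5- library 4, the least deep, a count of 0 allows 0.309 CPM, which limits Sox17; Tal1 and Stab2 had 4 and 2 counts there.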
